A study of Mus musculus with 2 samples.

Results

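Activins, follistatin-related proteins and activin receptors were followed in the mesenchyme and bone-forming cells of the embryonic mouse coronal suture. The coronal suture is the fibrous joint between the frontal and parietal bones. The 9 genes were taken by symbol from the gene lists deposited with the data: the activin subunits *Inhba* and *Inhbb*, the secreted proteins *Fst*, *Fstl3* and *Fstl1*, and the receptors *Acvr1*, *Acvr1b*, *Acvr2a* and *Acvr2b*. All were found in both lists, which share 27514 genes.

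Activins are dimers of inhibin beta subunits and belong to the TGF-beta superfamily. An activin dimer binds a type II receptor, encoded by *Acvr2a* or *Acvr2b*, which phosphorylates a type I receptor, chiefly ALK4 (encoded by *Acvr1b*), and the signal passes to the nucleus through SMAD proteins. Follistatin (*Fst*) and follistatin-like 3 (*Fstl3*) wrap around the ligand and keep it from its receptors, whereas ALK2 (*Acvr1*) is best known in the skeleton as a BMP receptor, mutated in fibrodysplasia ossificans progressiva.

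Single cells of wildtype C57/BL6 sutures were profiled with 10x Genomics 3′ reagents, and each stage, E15.5 or E17.5, is 1 matrix of counts (a library). The E15.5 library came from 10 sutures digested in 1 batch with collagenase II and dispase, followed by removal of dead cells. The E17.5 library came from 16 sutures of 2 litters, digested with collagenase IV in 3 batches and sorted, and its barcodes carry suffixes 1 to 3 that no label ties to a batch. Stage, enzyme, sorting, embryos, batch and counting software cannot be told apart between the libraries, and with 1 sample per stage no test was possible.

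The authors' cluster labels covered 5335 cells of the earlier library and 6830 of the later one: 5 ectocranial clusters (EC1 to EC4 and LIG, the last with ligament genes), 6 osteogenic clusters (OG1 to OG4 and the proliferative PO1 and PO2) and 4 meningeal clusters (MG1 to MG4). These cells held 48607817 UMIs (unique molecular identifiers, 1 per captured RNA molecule), with a median of 8510 per cell, and 92585034 UMIs with a median of 12301.5. Levels are UMIs summed over the cells of a cluster, per 1000000 UMIs of that cluster (CPM). A 3′ UMI count is not scaled by transcript length. Ranges in square brackets are exact 95% intervals, which cover counting error only. The clusters were made from the expression of these same cells, and *Inhba* and *Lef1* are genes by which the study marks OG2, so every comparison between clusters is a description.

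The labels were compared with defining markers. *Sp7*, a transcription factor of osteoblasts, stood at 204 CPM in OG4 and 0.543 in EC2 at E15.5. In OG2 it stood at 4.14 CPM in the E15.5 library and 172 in the E17.5 library, and *Runx2* at 30.7 and 116. *Sp7* was higher at E17.5 in every cluster, at 2.93 and 109.5 CPM in EC1 and 12.3 and 116.5 over all labelled cells. *Runx2* was 28.45 and 84.5 CPM over all labelled cells, but lower at E17.5 in OG3 and OG4. The cells under the OG2 label thus differed in these markers, as did those under other labels. In OG1 at E15.5, 4 keratinocyte markers summed to 403 CPM and 5 skeletal muscle markers to 772, against at most 3.69 and 7.62 in any E17.5 cluster. The 4 erythroid markers summed to between 5643 and 8708 CPM over the E15.5 clusters and between 362 and 601 over the E17.5 clusters, and their part in the results was not tested. Among the cells kept, 94 barcode sequences recurred in both libraries.

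The promoters of both activin subunit genes are shown because the cluster with the most UMIs differed between them in each library. At E15.5, however, PO2 and OG2 were among the 3 highest clusters of both. *Inhba* lies on the plus strand at chr13:16011851-16031621 and *Inhbb* on the minus strand at chr1:119415465-119422248 (GRCm38, GENCODE annotation), both protein coding. In the same annotation *Fst* lies at chr13:114452290-114458951 and *Fstl3* at chr10:79777272-79782630. *Fstl1* lies at chr16:37776873-37836514, *Acvr1* at chr2:58388644-58567157 and *Acvr2a* at chr2:48814109-48903269. *Acvr2b* lies at chr9:119402118-119434995 and *Acvr1b* at chr15:101174067-101213684. The RefSeq windows (GRCm38.p6) run from 250 bases before the gene's start to 50 after it, chr13:16011601-16011900 and chr1:119422199-119422498, and 8 of the 9 members had one. Capitals mark matches, on either strand, to the motifs searched. These were the TATA box, written TATAAA, and the AP-1 motif, written TGANTCA. The others were the TCF/LEF motif, written CTTTGA, the SMAD motif, written CAGACA, and the GC box, written GGGCGG.
Inhba: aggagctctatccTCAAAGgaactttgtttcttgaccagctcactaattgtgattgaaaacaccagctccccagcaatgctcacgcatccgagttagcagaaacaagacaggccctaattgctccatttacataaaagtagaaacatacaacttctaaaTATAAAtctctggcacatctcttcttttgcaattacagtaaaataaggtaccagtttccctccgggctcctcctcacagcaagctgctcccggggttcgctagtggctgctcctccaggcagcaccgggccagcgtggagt
Inhbb: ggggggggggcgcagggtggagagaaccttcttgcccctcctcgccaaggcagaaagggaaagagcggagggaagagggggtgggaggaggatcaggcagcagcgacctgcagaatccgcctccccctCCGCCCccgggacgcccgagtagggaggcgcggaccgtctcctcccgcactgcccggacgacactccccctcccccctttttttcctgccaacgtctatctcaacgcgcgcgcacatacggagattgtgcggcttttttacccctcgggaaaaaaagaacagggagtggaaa
The *Inhba* window held 1 TATA box match, which ended 86 bases before the start, and 1 TCF/LEF match, on the opposite strand, which ended 232 bases before it. The *Inhbb* window held 1 GC box match, on the opposite strand, which ended 117 bases before the start. No matches overlapped. GC made up 47.7% of the *Inhba* window and 64.3% of the *Inhbb* window, against a median of 52.7% over the table. Of 32851 windows, 13.6% held the TATA box letters, 16% the TCF/LEF letters, 35.7% the GC box letters, 21% the SMAD letters and 7.81% the AP-1 letters. A match describes letters and not a bound site.

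*Inhba*, which encodes the subunit of activin A, was concentrated in OG2 at E15.5. OG2 held 324 of the 825 *Inhba* UMIs, or 39.3%, at 79.0 [70.6 to 88.1] CPM, which was 7.02 [6.08 to 8.08] times the level in the other labelled cells. PO2, OG1 and PO1 came next, so the osteogenic clusters other than OG3 and OG4 led. Below OG2 the levels were PO2 at 64.0, OG1 at 45.2, PO1 at 38.2, LIG at 25.3, EC4 at 19.3, MG2 at 11.5, OG3 at 9.28 and EC1 at 9.1 CPM. The remaining clusters were MG4 at 4.52, OG4 at 4.42, MG1 at 3.82, MG3 at 3.05, EC3 at 1.96 and EC2 at 1.3 CPM. Only 2 of the 14 steps from a cluster to the next had a ratio whose interval lay above 1, PO1 over LIG at 1.51 [1.11 to 2.05] and EC4 over MG2 at 1.69 [1.11 to 2.6]. OG2 over PO2 was 1.23 [0.852 to 1.85], and PO2 rests on 35 cells and 31 *Inhba* UMIs.

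By cells, *Inhba* UMIs were found in 179 of 488 OG2 cells at E15.5 (36.7% [32.4 to 41.1]), and 37 of them held 3 or more. The background was taken from myeloid-like cells, in which the share was 1.24%; their median depth was 8948 UMIs against 7723 in OG2. With each cell thinned to 3000 UMIs the expected share was 19.5% in OG2, 19.1% in PO2, 2.28% in OG3, 0.799% in OG4 and 0.351% in the myeloid-like cells. Among the OG1 cells, 57 held a muscle or keratinocyte marker UMI. In the OG1 cells without one, *Inhba* was 55.0 [43.9 to 68.0] CPM, and in the OG2 cells without one it was 79.9 [71.1 to 89.4], so both levels were as high without the marked cells.

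At E17.5 *Inhba* was spread more evenly. PO1 came first with 17.3 [14.4 to 20.6] CPM, and OG2 stood at 14.1 [11.6 to 16.99]. The other levels were OG1 at 16.1, EC4 at 12.7, LIG at 12.0, EC1 at 11.1, OG3 at 11.0, PO2 at 10.5 and MG1 at 6.9 CPM, and EC3 at 4.57, MG2 at 3.1, MG3 at 2.94, OG4 at 2.57, EC2 at 1.38 and MG4 at 0.527. No step along this order had an interval above 1, but steps compare neighbours only. PO1 was 1.93 [1.59 to 2.34] times the other labelled cells, and EC2 0.133 [0.0662 to 0.239] times. By cells, 18.0% of OG2 cells held an *Inhba* UMI, or 4.05% at 3000 UMIs, against 0.18% and 0.0373% of myeloid-like cells. OG2 was 1.54 [1.25 to 1.87] times the other labelled cells, and in barcode suffixes 1, 2 and 3 it was 1.73, 1.95 and 1.06 times.

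The lower *Inhba* level of the E17.5 library was seen in 4 of the 6 osteogenic clusters. The ratio of E17.5 to E15.5 was 0.179 [0.143 to 0.222] in OG2, 0.164 [0.0851 to 0.306] in PO2, 0.355 [0.274 to 0.463] in OG1 and 0.454 [0.339 to 0.61] in PO1. It was 1.19 [0.66 to 2.36] in OG3 and 0.582 [0.257 to 1.48] in OG4, and both intervals include 1. Outside the osteogenic clusters the interval lay below 1 in EC4, LIG and MG2, and above 1 in no cluster. Over all osteogenic cells *Inhba* was 46.3 [42.5 to 50.4] CPM at E15.5 and 11.8 [10.9 to 12.8] at E17.5, with 12.8, 12.1 and 11.1 in the suffixes. Over the ectocranial cells the ratio was 1.06 [0.879 to 1.28], and over the meningeal cells 0.559 [0.373 to 0.845]. *Lef1*, a transcription factor of Wnt signalling, was 73.4 CPM in OG2 in the E15.5 library and 11.6 in the E17.5 library.

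**Figure D1:**
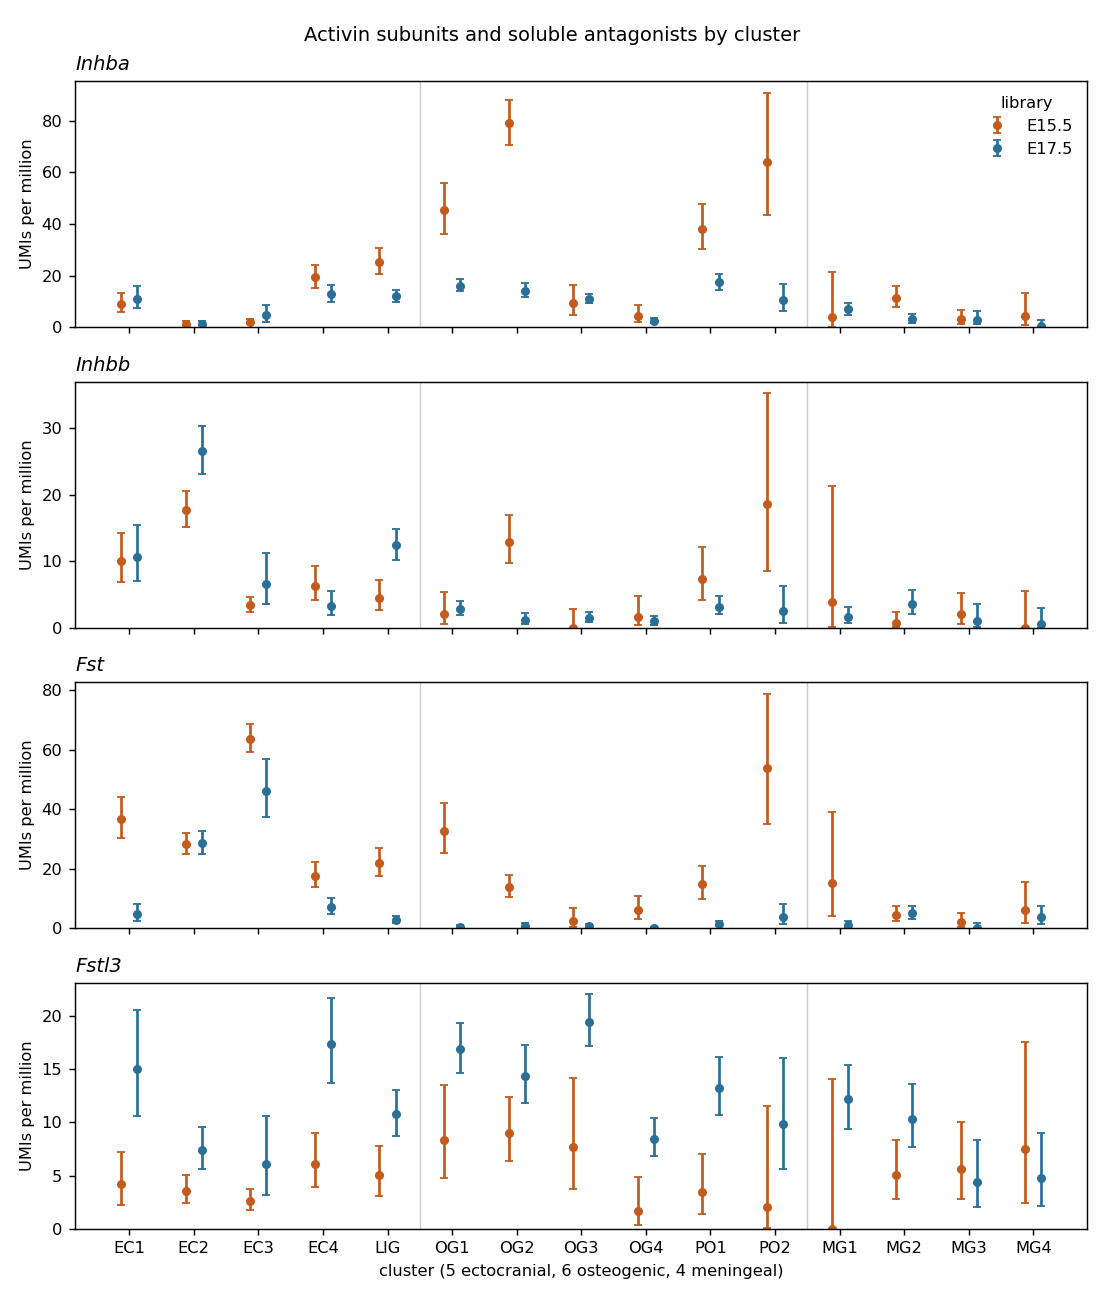
Level of *Inhba*, *Inhbb*, *Fst* and *Fstl3* in each cluster, in UMIs per 1000000 of the cluster, at both stages. Points are summed counts and bars exact 95% Poisson intervals. *Inhba* is highest in OG2 at E15.5 (79.0), *Inhbb* reaches 26.5 in EC2 at E17.5, *Fst* is highest in EC3 (63.7 and 46.2) and *Fstl3* reaches 19.5 in OG3 at E17.5.

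*Inhbb*, the subunit of activin B, had its largest share of UMIs in EC2, an ectocranial cluster. EC2 held 44.7% of its UMIs in the E15.5 library and 41.5% in the E17.5 library. The EC2 level was 17.7 [15.1 to 20.6] CPM and 26.5 [23.1 to 30.4], or 3.45 [2.79 to 4.26] and 7.56 [6.31 to 9.06] times the other labelled cells. At E15.5 the order was PO2 at 18.6, EC2 at 17.7, OG2 at 12.9, EC1 at 10.1, PO1 at 7.35, EC4 at 6.35, LIG at 4.51, MG1 at 3.82, EC3 at 3.36, OG1 at 2.08, MG3 at 2.04, OG4 at 1.66 and MG2 at 0.674 CPM, with no UMI in OG3 and MG4. No step along that order had an interval above 1, and PO2 rests on 9 UMIs. By region, E15.5 ectocranial cells held 8.81 [7.8 to 9.92] CPM and osteogenic cells 7.21 [5.75 to 8.92], and these intervals overlap. At E17.5 EC2 was 2.14 [1.7 to 2.72] times the next cluster, LIG at 12.4 CPM, and the others followed with EC1 at 10.7, EC3 at 6.6, MG2 at 3.51, EC4 at 3.34, PO1 at 3.16, OG1 at 2.85, PO2 at 2.47, MG1 at 1.64, OG3 at 1.48, OG2 at 1.14, MG3 at 0.98, OG4 at 0.953 and MG4 at 0.527.

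The interval of the *Inhbb* ratio of E17.5 to E15.5 lay below 1 in OG2, PO1 and PO2 and above 1 in EC2, LIG and MG2. In OG2 it had 53 UMIs at E15.5 and 9 at E17.5, a ratio of levels of 0.0879 [0.0381 to 0.18], and in PO1 and PO2 the ratios were 0.431 [0.215 to 0.888] and 0.133 [0.0299 to 0.476]. In EC2 the ratio was 1.5 [1.22 to 1.85] and in LIG 2.74 [1.66 to 4.79]. The difference between these clusters was not tested.

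Among the labelled clusters, *Fst* had its highest level in EC3 in both libraries. EC3 held 63.7 [59 to 68.7] CPM at E15.5 and 46.2 [37.2 to 56.7] at E17.5, which was 3.23 [2.91 to 3.59] and 11.2 [8.83 to 14.2] times the other labelled cells. At E15.5 EC3 was 1.19 [0.802 to 1.83] times the next cluster, PO2, and at E17.5 1.61 [1.25 to 2.06] times the next, EC2. EC2 stood at 28.2 and 28.7 CPM, a ratio of 1.02 [0.847 to 1.22]. In suffixes 1, 2 and 3 *Fst* in EC3 was 100, 36.8 and 32.5 CPM, and in EC2 25.3, 26.7 and 33.1, so the EC3 level was highest in suffix 1, which holds 35 EC3 cells.

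EC3 was also the cluster with the highest sum of the 5 pericyte markers at E17.5, 276 CPM, while at E15.5 the highest was EC4 at 159, and the lowest sums were 8.84 and 13.0. Within the list *Kcnj8* was 55.1 and 226 CPM in EC3, but also 93.8 and 227 in EC2, so it was not particular to EC3. The defining marker *Rgs5* was 0.56 and 4.57 CPM in EC3, against 641 and 2335 in pericyte-like cells outside the labelled clusters. *Higd1b* had no UMI in EC3.

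Among the labelled clusters, little *Fst* was found outside EC2 and EC3 at E17.5. At E15.5 the levels were PO2 at 53.7, EC1 at 36.7, OG1 at 32.8, LIG at 21.8, EC4 at 17.6, MG1 at 15.3, PO1 at 14.7 and OG2 at 13.9 CPM, then OG4 at 6.08, MG4 at 6.02, MG2 at 4.38, OG3 at 2.32 and MG3 at 2.04. At E17.5 they were EC4 at 7.12, MG2 at 4.96, EC1 at 4.75, PO2 at 3.71, MG4 at 3.69, LIG at 2.82 and PO1 at 1.38 CPM, then MG1 at 1.09, OG2 at 0.883, OG3 at 0.776 and OG1 at 0.418, with no UMI in OG4 and MG3. Intervals of the ratio lay below 1 in 10 of the 15 clusters and above 1 in none. It was 0.0128 [0.00401 to 0.0314] in OG1, 0.0635 [0.0245 to 0.14] in OG2 and 0.0936 [0.0408 to 0.197] in PO1. The count of 0 in OG4 among 10496361 UMIs allows up to 0.286 CPM, taken as 3 counts, a limit on counting error that is narrower than the upper bound of the two-sided intervals. In the E15.5 OG1 cells with no muscle or keratinocyte marker *Fst* was 38.2 [29.1 to 49.3] CPM, and 10.6 [2.89 to 27.1] in those with one, so the OG1 level was as high without the marked cells.

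Set against *Inhba* in the same cells, *Fst* differed between clusters, also within the ectocranial ones. In EC3 there were 32.5 [21.1 to 52.9] *Fst* UMIs per *Inhba* UMI at E15.5 and 10.1 [5.1 to 22.8] at E17.5, and in EC2 21.7 [12.2 to 42.5] and 20.7 [11.4 to 42.1]. The other ectocranial clusters were lower. EC1 had 4.04 [2.65 to 6.34] and 0.429 [0.1985 to 0.87], and EC4 0.911 [0.653 to 1.27] and 0.561 [0.352 to 0.88]. LIG had 0.861 [0.639 to 1.16] and 0.236 [0.148 to 0.365]. In OG2 there were 0.176 [0.13 to 0.234] and 0.0625 [0.0246 to 0.133], and over all osteogenic cells 0.352 [0.297 to 0.416] and 0.0617 [0.0432 to 0.0856]. *Inhba* UMIs thus outnumbered *Fst* UMIs over the osteogenic cells in both libraries, and the reverse held in EC2 and EC3. These ratios leave out *Inhbb* and *Fstl3*. In EC2 *Inhbb* had 163 UMIs at E15.5 and 211 at E17.5, against 260 and 228 of *Fst*. Of the 179 OG2 cells with *Inhba* at E15.5, 14 also held a *Fst* UMI, and of all 488 OG2 cells 45 held one.

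*Fstl3*, another activin-binding antagonist, was higher in the E17.5 library. Over all labelled cells it was 4.61 [4.03 to 5.25] CPM at E15.5 and 12.8 [12.1 to 13.6] at E17.5, a ratio of 2.79 [2.41 to 3.23]. Intervals of the ratio lay above 1 in 11 of 15 clusters, 5 of the 6 osteogenic ones among them, and below 1 in none. At E15.5 the osteogenic levels were OG1 at 8.32, OG2 at 9.02, OG3 at 7.73, OG4 at 1.66, PO1 at 3.43 and PO2 at 2.07 CPM. At E17.5 they were OG1 at 16.9, OG2 at 14.4, OG3 at 19.5, OG4 at 8.48, PO1 at 13.2 and PO2 at 9.88. No step of its order had an interval above 1 in either library, whereas *Fst* had such steps in both. Steps compare neighbours only. At E17.5 *Fstl3* in OG3 was 1.656 [1.435 to 1.905] times the other labelled cells, and in MG3 0.338 [0.154 to 0.645] times.

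In the osteogenic cells the balance of these antagonists differed between the libraries. They held 190 *Fst* and 74 *Fstl3* UMIs in the E15.5 library. In the E17.5 library there were 38 and 768. That is 0.39 *Fstl3* UMIs per *Fst* UMI at the earlier stage and 20.2 at the later one. In the suffixes the osteogenic *Fst* level was 0.598, 0.642 and 0.864 CPM and the *Fstl3* level 13.2, 15.51 and 14.6, the same order in each.

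**Figure D2:**
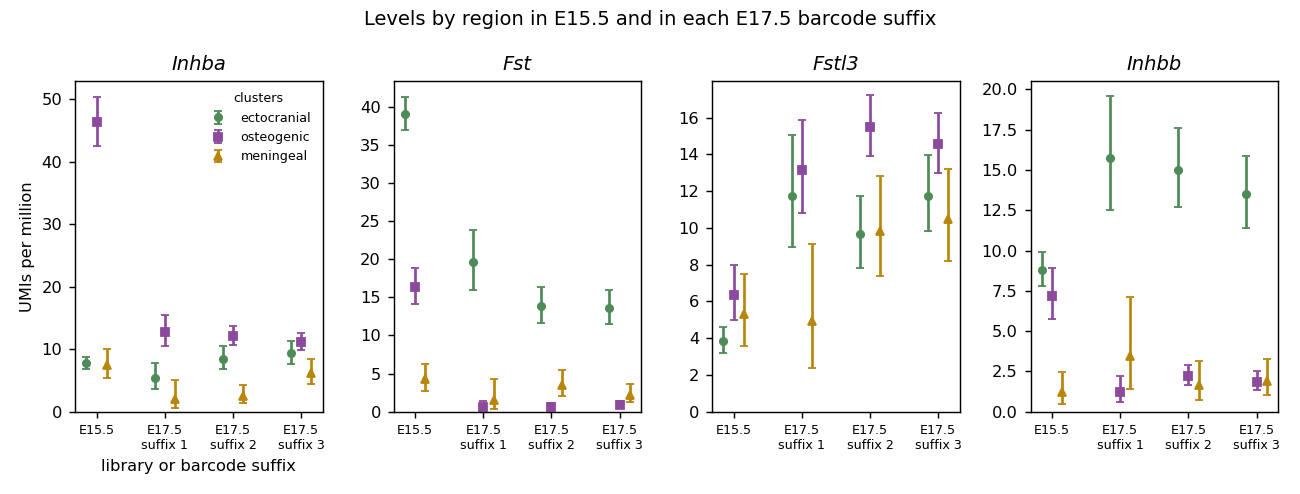
Level of members over the ectocranial, osteogenic and meningeal cells, in UMIs per 1000000, in the E15.5 library and in each E17.5 barcode suffix, with exact 95% Poisson intervals. Osteogenic *Inhba* is 46.3 at E15.5 against 12.8, 12.1 and 11.1 for the suffixes, and osteogenic *Fst* is 16.3 at E15.5 and below 1 in each suffix.

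*Fstl1*, a secreted glycoprotein of mesenchyme that carries a follistatin domain, had the most UMIs of any member, 77469 and 96368. EC2 was highest in both libraries, at 2266 [2235 to 2297] and 2915 [2878 to 2953] CPM. OG4 was lowest in both, at 167 [149 to 187] and 213 [204 to 222]. The osteogenic clusters took the 6 lowest places in each library, and the last step, to OG4, was 4.04 [3.44 to 4.73]-fold from PO2 at E15.5 and 2.64 [2.51 to 2.78]-fold from OG2 at E17.5. Of the 14 steps 8 and 9 had an interval above 1. The Pearson r of its levels between the libraries was 0.949 over the 15 clusters, against 0.782 for *Acvr1*, 0.777 for *Inhba*, 0.57 for *Fst*, 0.509 for *Acvr2b*, 0.495 for *Inhbb*, 0.268 for *Fstl3*, -0.00554 for *Acvr2a* and -0.282 for *Acvr1b*. Clusters of a library share its depth and preparation, so r is a description.

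*Acvr1* was even between the libraries, at 18.5 [17.3 to 19.7] CPM over the labelled cells at E15.5 and 18.4 [17.51 to 19.3] at E17.5, a ratio of 0.996 [0.918 to 1.08]. At E15.5 it was highest in MG1, on only 9 UMIs, and MG2, on 102, both at 34.4 CPM, and at E17.5 in EC4 at 32.3. It was lowest in OG2 in both, at 9.75 and 12.2. Meningeal cells held 29.4 [25.1 to 34.1] and 25.1 [22.6 to 27.9] CPM, and osteogenic cells 13.0 [11.1 to 15.3] and 15.53 [14.5 to 16.6]. No step from a cluster to the next had an interval above 1 for any of the receptor genes.

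*Acvr1b*, the type I receptor of activins, had the fewest UMIs of the members. It had 88 UMIs at E15.5 and 179 at E17.5 in all labelled cells, or 1.81 [1.45 to 2.23] and 1.93 [1.66 to 2.24] CPM. No labelled cell held more than 2, and the highest share of cells with a UMI in a cluster was 5.71%, in PO2 at E15.5. A cell without a UMI cannot be called a cell without the receptor at this depth.

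The type II receptors differed from each other. *Acvr2a* was 9.32 [8.48 to 10.2] CPM at E15.5 and 4.21 [3.81 to 4.65] at E17.5, a ratio of 0.452 [0.394 to 0.519]. It was lower at E17.5 in 14 of 15 clusters, with intervals below 1 in 8. Its highest clusters were PO2 at 16.5 CPM at E15.5, on 8 UMIs, and MG4 at 10 CPM at E17.5, on 19. PO2 was the lowest cluster at E17.5, at 2.47 CPM. *Acvr2b* was 5.66 [5.01 to 6.37] and 5.58 [5.11 to 6.09] CPM, a ratio of 0.987 [0.851 to 1.15]. Single clusters had ratios on both sides of 1: in EC2, where it stood at 12.6 CPM at E15.5, the ratio was 0.44 [0.303 to 0.627], while it was 2.67 [1.43 to 5.3] in EC4 and 1.61 [1.01 to 2.64] in LIG.

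In OG2 at E15.5, the cluster highest for *Inhba*, *Acvr2a* stood at 6.58 [4.34 to 9.58] CPM and *Acvr2b* at 3.66 [2.05 to 6.03]. *Acvr1b* had 4 UMIs there. Of the 179 OG2 cells with *Inhba*, 13 also held a UMI of a type II receptor, and of all 488 OG2 cells 39 held one.

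**Figure D3:**
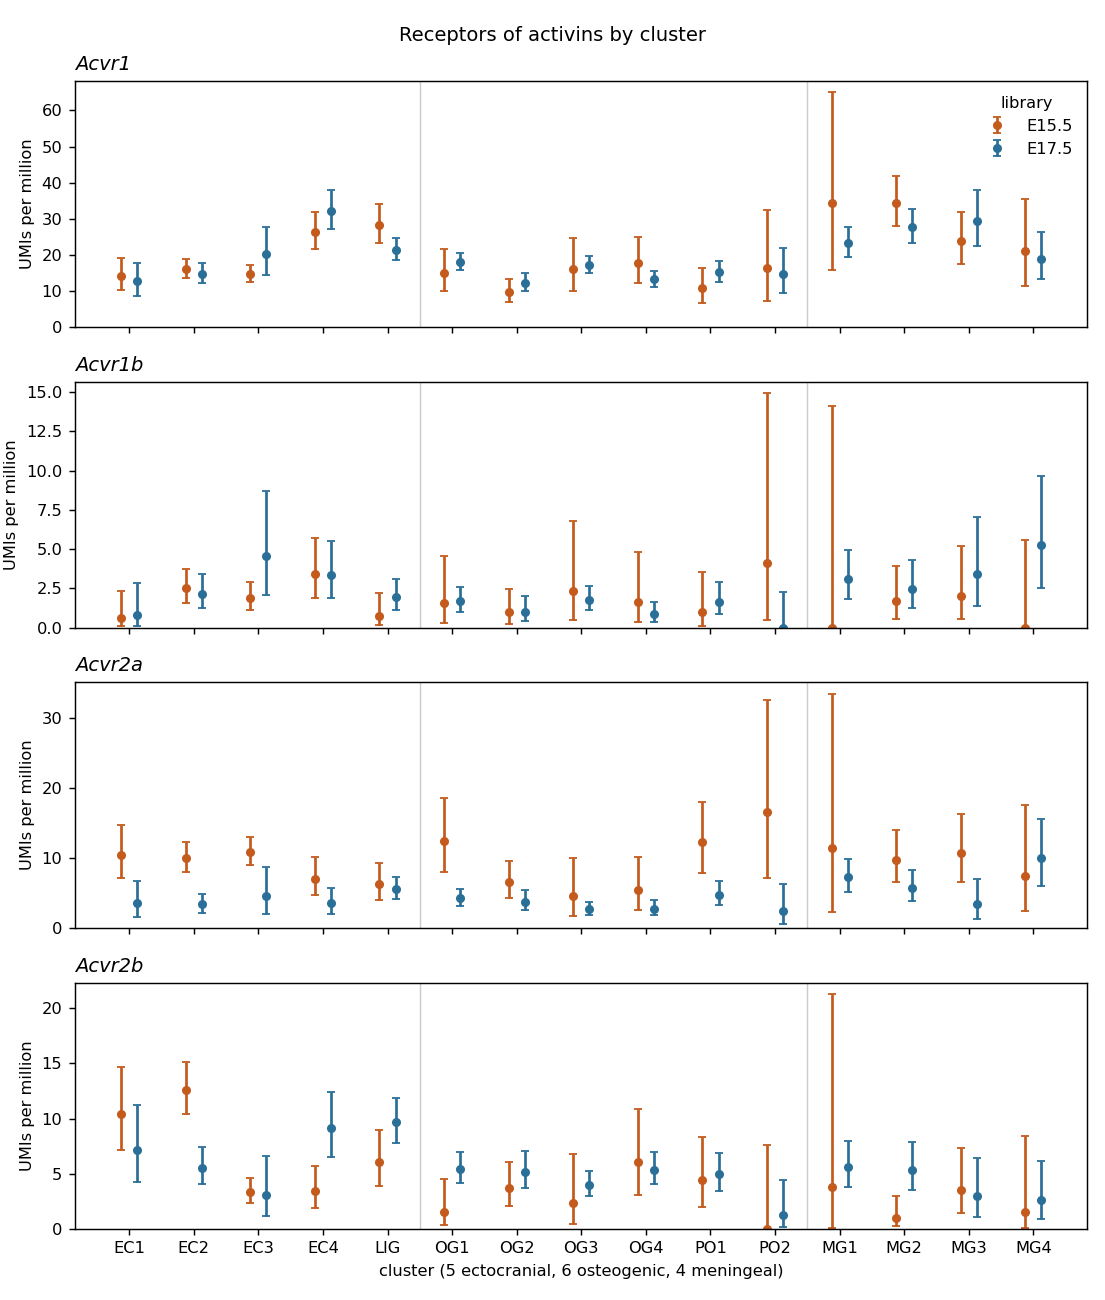
Level of the receptor genes in each cluster, in UMIs per 1000000 of the cluster, at both stages, with exact 95% Poisson intervals. *Acvr1* is lowest in OG2 in both libraries (9.75 and 12.2), and *Acvr2a* is lower at E17.5 in 14 of 15 clusters.

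Counted by fixed limits, 2 of the 9 members were at least 2-fold above the other labelled cells in the same cluster in both libraries, *Inhbb* in EC2 and *Fst* in EC3. Of the 12150 genes with at least 50 UMIs in each library 20.7% passed the same limit, so the members' share is near the background. *Inhba* did not pass: in PO1, its best cluster in common, it was 2.38-fold and 1.93-fold. It passed, in a cluster that need not be PO1, where per-cell CPM was averaged or clusters counted equally. The same held where possible doublets were left out and in suffix 1 alone.

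Between the libraries, over all labelled cells, *Fst* at 0.17 [0.153 to 0.189] and *Acvr2a* were at least 2-fold lower at E17.5, as were 9.88% of all genes, and *Fstl3* was at least 2-fold higher, as were 4.88%. The median ratio was 0.731 for the members and 1.004 for all genes. *Inhba* stood at 0.567 [0.515 to 0.624], and at 0.396 with the clusters weighted equally, past the limit. Without possible doublets, a setting that left out 1876 and 4503 labelled cells, *Inhba* passed the limit at 0.465 and *Acvr2a* did not, at 0.517. The make-up of the labelled cells moved with these ratios: EC3 was 22.2% of them in the E15.5 library and 2.84% in the E17.5 library. With equal weights *Fst* stood at 0.334 and *Fstl3* at 2.37.

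**Figure D4:**
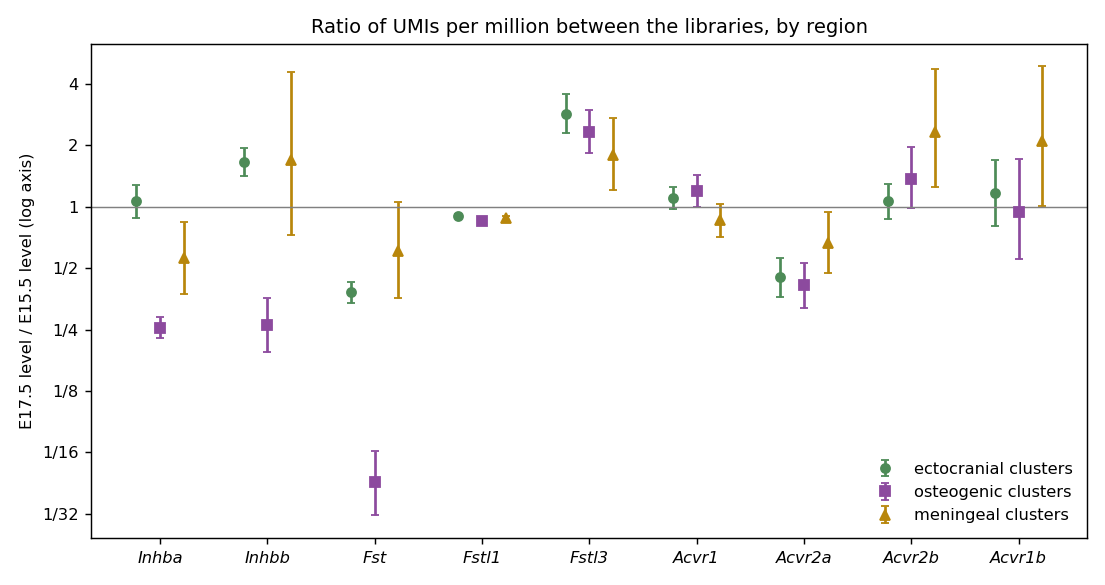
Ratio of the E17.5 to the E15.5 level of each member over the ectocranial, osteogenic and meningeal cells, on a log axis, with exact 95% intervals that cover counting error only. Osteogenic ratios are 0.255 for *Inhba*, 0.263 for *Inhbb* and 0.0447 for *Fst*, and *Fstl3* lies above 1 in each region.

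Of 40 other genes of the pathway, 24 had at least 50 UMIs in each library. Of these 5 were at least 2-fold enriched in the same cluster in both libraries (20.7% of all genes), 1 was at least 2-fold higher at E17.5 and 2 were lower, and the median ratio was 0.993. Of the 8 other ligand genes only *Inha*, the inhibin alpha subunit, and *Gdf11*, a ligand of the same type II receptors, reached the minimum. *Gdf11* was highest in EC1, at 11.4 and 8.7 CPM. *Mstn*, myostatin, had 12 UMIs at E15.5 and 0 at E17.5. It was highest in the E15.5 OG1 cells, the cluster with the most skeletal muscle marker RNA, whose 5 markers summed to 772 CPM there and to at most 7.62 in an E17.5 cluster, and their part in the *Mstn* counts was not tested.

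Among binding proteins, *Wfikkn2*, an antagonist of myostatin and GDF11, was highest in EC4, at 13.0 and 18.0 CPM, and also passed the limit in MG2. *Lefty1*, an antagonist of Nodal, was highest in EC2, at 23.9 [20.8 to 27.3] and 39.3 [35.0 to 43.9] CPM, the cluster of *Inhbb*. *Bambi*, a decoy receptor that lacks the kinase domain, was highest in OG4, at 418 [389 to 449] and 362 [351 to 374] CPM, which was 9.64 and 5.28 times the other labelled cells.

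Inside the cell, *Skil*, a repressor of SMAD activity, was highest in EC4, at 86.0 and 76.1 CPM. The inhibitory SMAD genes differed: *Smad6* had a ratio of 2.54 and *Smad7* of 0.491. The SMAD genes that carry activin signals stood at 0.837 for *Smad2*, 1.26 for *Smad3* and 1.56 for *Smad4*, the SMAD shared with BMP signalling. *Tgfbr3*, betaglycan, a coreceptor for TGF-beta and inhibin, stood at 0.436. None of the 6 other receptor genes with enough UMIs was enriched in the same cluster in both libraries.

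The 9863 genes with at least 200 UMIs in each library were ranked by the smaller of their Pearson correlations with a member, 1 per library, over the 15 clusters on log2(CPM + 10). The nearest to *Inhba* was *Bcl11b*, a zinc-finger transcription factor (r of 0.951 and 0.919 in the E15.5 and E17.5 libraries), then *Lef1* (0.934 and 0.868) and *Arhgdib* (0.876 and 0.845). *Inhbb* had *Cpa6* (0.87 and 0.921), *Nnmt* and *Hoxd8*. For *Fst* the nearest were *Eps8* (0.823 and 0.847), *Rtl1* and *Cavin2*, and for *Fstl1* *Ndn* (0.944 and 0.948), *Loxl1* and *Col3a1*, which encodes type III collagen.

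The genes nearest to *Fstl3* encode ribosomal proteins, *Rpl22* (0.849 and 0.798), *Rps6* and *Rps15*. *Acvr1* was nearest to *Lrp6*, a Wnt coreceptor (0.889 and 0.913), *Adamts10* and *Pdgfrl*. *Acvr2a* had *Tpmt* (0.698 and 0.685), *Zfr* and *Gemin7*, and *Acvr2b* had *Riiad1* (0.624 and 0.726), *Polr3d* and *Ugcg*. The levels of *Acvr2a* had an r of only -0.00554 between the libraries, and those of *Fstl3* 0.268. Their nearest genes therefore follow patterns that differed between the libraries. All these genes are the top ranks of a search over many genes, and no r was tested. *Acvr1b* had too few UMIs to be ranked. Among the members, the r in the E15.5 and then the E17.5 library was 0.253 and -0.348 for *Inhba* with *Fst*, 0.338 and 0.812 for *Inhba* with *Fstl3* and 0.605 and 0.63 for *Inhbb* with *Fst*.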

How the data were processed

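The submitters' processing notes name mm10, Cell Ranger and Seurat 3.2.0, and the E15.5 file header gives Cell Ranger 3.1.0. The matrices the authors deposited hold raw UMI counts for each gene and barcode. Every labelled E17.5 cell had the UMI total of the authors' table, and every labelled E15.5 cell had fewer (table median 11513). The table the authors deposited also gives other values, the cluster names, and 5 E15.5 labels matched no barcode.

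Summed UMIs per cluster were divided by the cluster's total with pandas 2.3.3 and numpy 2.4.6 under Python 3.11.15, and intervals came from scipy 1.17.1. The 2875 and 1937 unlabelled cells within the limits were clustered with scanpy 1.11.5 and named from marker lists, or left unnamed. Limits were at least 1000 UMIs and 1000 genes, and at most 7.5% mitochondrial UMIs. The *Hbb* and *Hba* haemoglobin genes were each limited to 3% of UMIs. Labelled cells were all kept, 93 of them outside these limits, and possible doublets were kept. Intervals are exact Poisson, Clopper-Pearson and conditional binomial. The functions were tested on simulated data.

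The members, lists and the rule for named genes (members, pathway list, and the 3 genes most like each member) were chosen with earlier results of these data known. Alternatives covered cell limits, depth, doublets, scaling, weighting, fold limits, the UMI minimum and each suffix. Leaving out cells with muscle or keratinocyte markers was chosen after seeing the data.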

Additional observations from a re-analysis of the deposited data

Results flagged for a closer look

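*Inhbb* had ratios of E17.5 to E15.5 on opposite sides of 1, 5.21 [1.24 to 46.5] in MG2 and 0.0879 [0.0381 to 0.18] in OG2. The MG2 value rests on 2 UMIs at E15.5. *Fstl1* stood at 1.29 [1.26 to 1.31] in EC2 and 0.651 [0.623 to 0.681] in OG2. *Acvr2b* stood at 5.31 [1.63 to 27.4] in MG2, with 3 UMIs at E15.5, and 0.44 [0.303 to 0.627] in EC2. The differences between clusters were not tested.

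Cells outside the labelled clusters entered no comparison of the members above, except the myeloid-like cells whose *Inhba* shares were given as background. At E17.5 *Fst* was 206 [160.1 to 260.4] CPM in 32 glia-like cells and 55.8 [46.5 to 66.4] in 174 pericyte-like cells, against at most 46.2 in a labelled cluster. *Acvr2b* was 37.4 [28.4 to 48.3] CPM in 95 neuron-like cells, against at most 9.67 in a labelled cluster.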

How the results depend on the processing

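Of 66 values of the comparisons recomputed under the alternatives, 54 stayed within the interval of the reported fold or within 1.5 times the reported count. The fold of *Inhba* in OG2 was 4.59 at E15.5 with clusters weighted equally, and at E17.5 1.95 in suffix 2 and 1.06 in suffix 3. The members enriched in both libraries numbered 4 in suffix 1 alone and 7 at 1.5-fold. The members past the limit between libraries numbered 5 at 1.5-fold and 1, *Fst*, at 3-fold. The pathway genes enriched numbered 3 with averaged per-cell CPM and in suffix 1, 11 at 1.5-fold and with no UMI minimum, and 1, *Bambi*, at 3-fold. Of 189 folds of single members 2 reversed, *Acvr2b* in LIG at E17.5 to 0.947 without possible doublets and *Acvr1b* in MG4 at E17.5 to 0 in suffix 1, where MG4 is 7 cells and the interval of the 0 runs to 47.6 CPM, too few to read a direction. Other limits pass more or fewer genes by construction, and the cause of the other shifts was not tested. The share of all genes was taken only under the main settings, so these counts have no background beside them. Possible doublets were labelled cells with UMIs of at least 2 markers of myeloid, mast, lymphoid, endothelial or skeletal muscle cells. The 5% with the most UMIs were added. Leaving these cells out removed 1876 of 5335 and 4503 of 6830 labelled cells. The 6 myeloid markers summed to between 117 and 184 CPM over the E17.5 clusters, so the rule may not pick doublets alone. No paired analysis was possible because each stage has 1 sample. Depth limits *Acvr1b* most.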

Other observations

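Among unlabelled cells, *Inhba* was 25.5 [19.3 to 32.9] CPM in pericyte-like cells at E15.5 and 21.7 [16.1 to 28.7] at E17.5. In osteoclast-like cells *Inhba* had 1 UMI in each library, and *Acvr2a* was 14.4 [10.47 to 19.4] and 7.23 [4.35 to 11.3] CPM. In chondrocyte-like cells *Inhba* was 9.87 [8.2 to 11.8] and 1.71 [0.626 to 3.71] CPM. *Inhbb* was 27.7 [20.0 to 37.3] CPM in neuron-like cells at E17.5. In 508 E15.5 cells that were given no name *Inhba* was 52.9 [47.0 to 59.3] CPM. These cells pool several clusters with unlike leading genes, and the level was not separated by cluster.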
